A study of Homo sapiens with 2 samples.

Results

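The mRNA of COP1, an enzyme that marks proteins for degradation, and of 9 genes that work with it was followed in RWPE-1, an established line of noncancerous epithelial cells from human prostate. The cells had received 30 nM of either pre-miR-424, which supplies the microRNA miR-424, or a negative control precursor. The members were COP1 (formerly RFWD2), its complex partners DET1, DDB1 and CUL4A, the Tribbles adaptors TRIB1 and TRIB2, and the substrates ETV1, ETV4, ETV5 and JUN. They were chosen for these roles, with earlier results of these data known, and found by the RefSeq accession of each non-control probe. All 10 were among the 19740 genes of the array, with 14 of its 42405 probes. Both cell groups were of the same line, grown in supplemented keratinocyte serum-free medium, and differed by the precursor received. Their RNA was hybridised together on 2 Agilent two-colour arrays, with pre-miR-424 in Cy5 and control in Cy3 on the array with normal labelling, and the dyes exchanged on the dye swap. The arrays are technical replicates, so they count as 1 replicate, no p-value was computed, and the spread between them covers labelling and hybridisation only.

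COP1 is a RING-type E3 ubiquitin ligase whose substrates, many of them transcription factors, are degraded by the proteasome. It acts within a larger ligase in which CUL4A is the scaffold, DDB1 the adaptor and DET1 the link between DDB1 and COP1, while Tribbles pseudokinases bring substrates to it. Among those substrates, the ETS factors ETV1, ETV4 and ETV5 are known from prostate cancer, where ETV genes are rearranged in some tumours, and JUN is a core subunit of the AP-1 transcription factor. As COP1 acts on proteins, the mRNA values of the substrates below do not show whether their protein levels changed.

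A microRNA binds its targets mainly through its seed, bases 2 to 8, shown in capitals in the following RefSeq sequences (GRCh38.p14), which are given to show the guide that the transfection delivered and the microRNAs of the same table that share its seed. The first lies at chrX:134546680-134546701 on the minus strand.
hsa-miR-424-5p: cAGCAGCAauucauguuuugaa
hsa-miR-16-5p: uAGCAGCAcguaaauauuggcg
hsa-miR-15a-5p: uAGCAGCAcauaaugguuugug
hsa-miR-15b-5p: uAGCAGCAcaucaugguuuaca
hsa-miR-195-5p: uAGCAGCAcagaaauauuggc
hsa-miR-497-5p: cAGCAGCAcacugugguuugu
hsa-miR-6838-5p: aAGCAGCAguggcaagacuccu
The reverse complement of this seed, UGCUGCU, is the sequence that a full seed match in an mRNA would carry. Transcript sequences were not analysed here, so no site in COP1 or another member was looked for, and the arrays hold no measurement of the mature microRNA itself.

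A probe was taken as measured where both channels exceeded background clearly on each array and none of its spots was an outlier, which held for 25664 probes. A gene was then read by the brightest of these, giving 13812 genes. All 10 members were measured, by 13 of their 14 probes. Over all measured probes the error of a single array, taken as the SD of the difference between the arrays divided by the square root of 2, was 0.24 on the log2 scale. At the brightness of each measured member probe, that is among the 1000 probes nearest to it in mean intensity, this error was 0.20 to 0.23, and the error of the mean of both arrays was 0.14 to 0.16. All 6 basal prostate epithelial markers were measured, whereas 2 of 6 luminal, 3 of 6 fibroblast, 2 of 5 leukocyte and 1 of 4 endothelial markers were. KLK3, which defines luminal cells, was not measured, and neither were CD3E or PECAM1. Of the measured markers, 0 passed either threshold used below on both arrays.

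A gene was called where both arrays passed a threshold on the same side of 0. At 1.5-fold, which 1.01% of all measured genes passed, 0 of the 10 members were called. At a lower threshold, a log2 ratio of 0.32 in size, which 4.67% of genes passed, 3 of the 10 were called. COP1 was lower with pre-miR-424 (2.29% of genes were lower by this rule), and TRIB2 and ETV1 were higher (2.38%). When Cy5 was set over Cy3 on both arrays, so that a call would follow the dye, the lower threshold was passed by 0 of 10 members and by 1.68% of genes. The same sign on both arrays was seen for 7 of 10 members, against 53.5% of all genes. Of these, 3 were higher (26.8% of all genes) and 4 were lower (26.7%). The members had no common direction, with a median log2 ratio of −0.05 against −0.0042 for all genes. This median turned sign between the arrays, from 0.03 on the normal one to −0.11 on the swap.

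**Figure D1:**
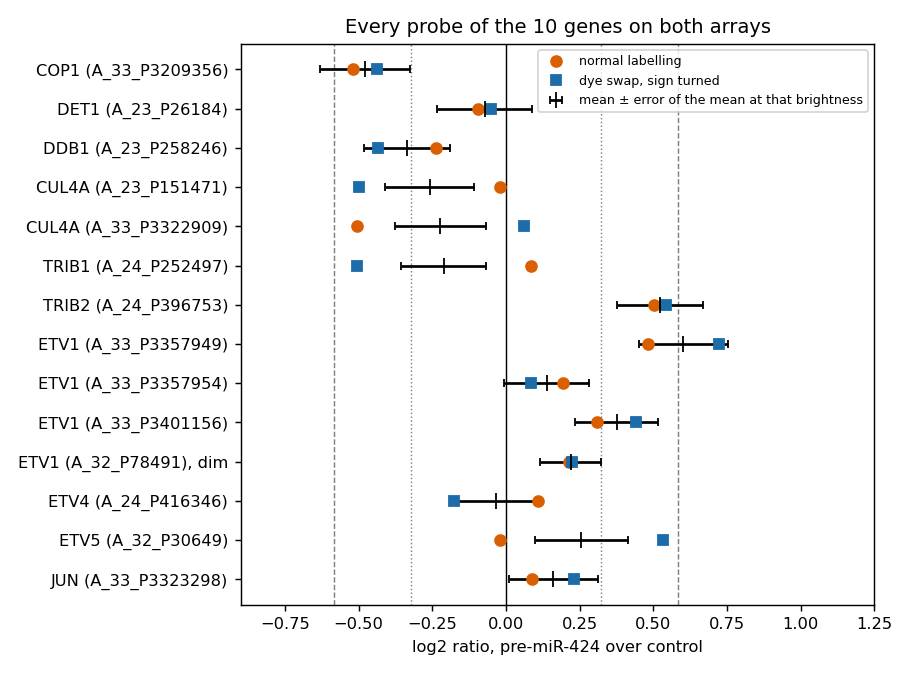
Log2 ratio of pre-miR-424 over control (horizontal axis) for every probe of the 10 genes, with the normal array as circles, the dye swap as squares, and the mean with its error at that brightness as a bar; dotted and dashed lines mark log2 ratios of 0.32 and 1.5-fold. COP1 lies left of the dotted line below 0 on both arrays, TRIB2 and the brightest ETV1 probe lie right of the one above 0, and the arrays lie far apart for both CUL4A probes, TRIB1 and ETV5.

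By the mean of both arrays, the ligase itself was the member with the largest fall. On the swap alone, TRIB1 (−0.51) and the brighter CUL4A probe (−0.50) were lower than COP1 (−0.44), and DDB1 (−0.43) was close to it. For COP1 (NM_022457), the normalized log2 intensity on the normal array was 10.83 after pre-miR-424 against 11.35 after the control, and on the swap it was 10.90 against 11.33. Both values with pre-miR-424 thus lay below both control values, in whichever dye the RNA carried. Such a separation of the groups, in either direction, does not mark a called gene. It was also seen for DDB1, DET1, JUN and the brighter CUL4A probe, which were not called, and its share over all genes was not computed. Its log2 ratios were −0.52 and −0.44, with a mean of −0.48 (SD 0.059 between the arrays, error of the mean 0.15), that is 1.39-fold lower. Its dye component, the part of the log2 ratio that followed Cy5 when the dyes were exchanged, was −0.04. Of the 13812 measured genes, 214 (1.55%) had a lower mean ratio than COP1, a share that was 1.98% on the normal array alone and 4.42% with the swap alone. COP1 was read by 1 probe printed as 1 spot, so no second probe or spot bears on this value. With the raw signals, the COP1 spot read 2257.5 in Cy5 and 2141.5 in Cy3 on the normal array, and 3588 in Cy5 and 1348 in Cy3 on the swap, over backgrounds of 27 to 77. The signal in Cy5 was thus the higher one on both arrays before normalization, and far more so where the Cy5 RNA was that of control cells.

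Among genes lowered like COP1, the 3 nearest by the Euclidean distance of the pair of log2 ratios, over 2 arrays, were FAT2 (−0.51 and −0.43, distance 0.011), EPGN (−0.54 and −0.43, distance 0.019) and CYP4F11 (−0.51 and −0.42, distance 0.020). With 2 arrays, such a match says only that the values are alike.

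The partners that join COP1 to the cullin scaffold gave smaller ratios. DDB1, the adaptor of CUL4 ligases, had log2 intensities of 13.83 with pre-miR-424 and 14.07 with control on the normal array, and of 13.64 and 14.07 on the swap. It was lower on both arrays, with log2 ratios of −0.24 and −0.43 (mean −0.34, SD 0.14, error of the mean 0.15), and 553 of 13812 genes had a lower mean. Its duplicate spots ranged from −0.28 to −0.20 on the normal array and from −0.46 to −0.40 on the swap, so that the spots of an array lay closer together than the arrays did. The normal array did not reach the lower threshold, and DDB1 was not called.

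CUL4A, the scaffold, was read by 2 probes that disagreed. At the brighter one, log2 intensities with pre-miR-424 and control were 12.14 and 12.16 on the normal array, and 11.80 and 12.30 on the swap. At the other they were 11.25 and 11.76, and 11.59 and 11.53. The log2 ratios of the brighter probe were thus −0.02 and −0.50, and those of the other −0.50 and 0.06. Each probe was lower on 1 array and near 0 on the other, on opposite arrays, and their means of −0.26 and −0.22 were alike although neither repeated across the swap. The dye components were 0.24 and −0.28, smaller in size than the mean for the brighter probe and larger for the other. For DET1, the bridging subunit, log2 intensities were 8.75 with pre-miR-424 and 8.84 with control on the normal array, and 8.73 and 8.78 on the swap. The mean log2 ratio of −0.07 was smaller than its error of 0.16, and 31.7% of genes lay lower, so a difference of DET1 was not detectable on these arrays.

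**Figure D2:**
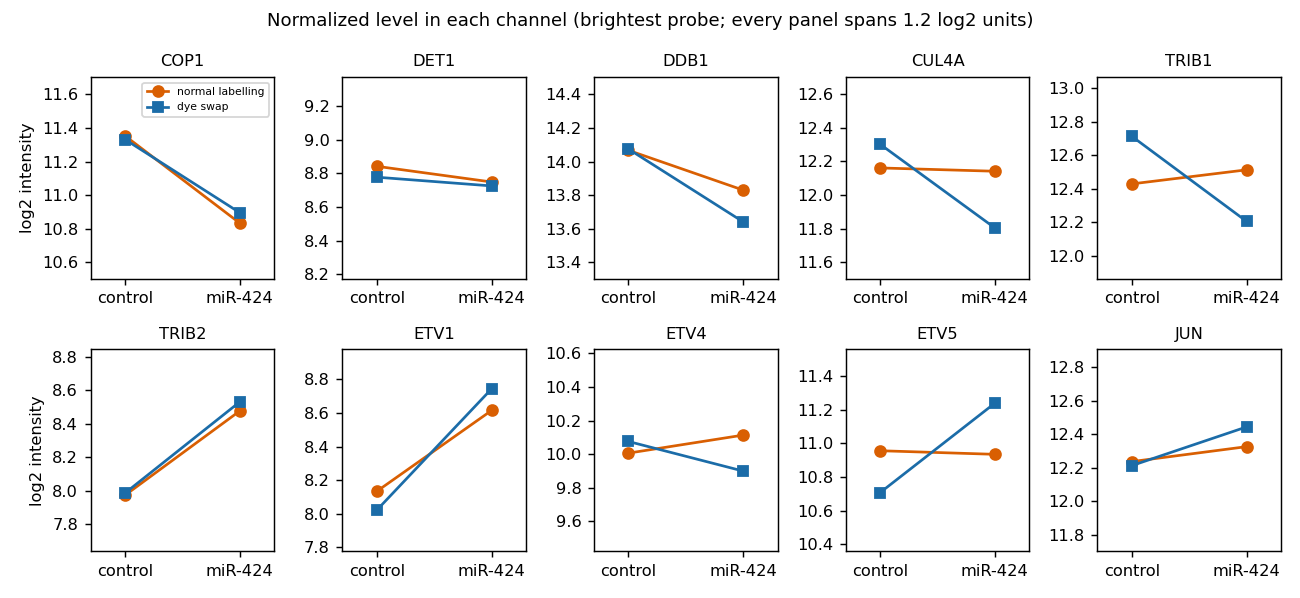
Normalized log2 intensity of control and pre-miR-424 RNA (vertical axis, each panel spanning the same range) for the brightest probe of each gene, joined within each array. Both lines fall for COP1 and DDB1 and rise for TRIB2 and ETV1, while for TRIB1, ETV4 and ETV5 the arrays slope in opposite directions.

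The Tribbles adaptors, pseudokinases that hold both COP1 and a substrate such as CEBPA, gave different values. TRIB2 (NM_021643) had log2 intensities of 8.48 with pre-miR-424 and 7.97 with control on the normal array, and of 8.53 and 7.99 on the swap. The log2 ratios of 0.50 and 0.54 (mean 0.52, SD 0.029, error of the mean 0.15) correspond to 1.44-fold higher with pre-miR-424. Its duplicate spots ranged from 0.45 to 0.55 on the normal array and from 0.53 to 0.56 on the swap, and 1.32% of genes had a higher mean. TRIB2 was dimmer than most measured probes, with 34.0% of them below it in brightness, and the offset of the background correction shrinks the ratios of dim probes.

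For TRIB1, by contrast, log2 intensities were 12.51 with pre-miR-424 and 12.43 with control on the normal array, and 12.21 and 12.71 on the swap. The log2 ratios of 0.08 and −0.51 had opposite signs, and the dye component of 0.30 exceeded the mean of −0.21 in size. Its duplicate spots agreed within an array, from 0.08 to 0.09 on the normal one and from −0.58 to −0.43 on the swap, so the disagreement lay between the arrays. No direction can be given for TRIB1.

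Of the substrates, ETV1, an ETS factor of the PEA3 group, was the member with the largest mean ratio when read by its brightest probe. With the mean over its probes (0.37), or on the normal array alone (0.48), it lay below TRIB2 (0.52 and 0.50). At its brightest probe (NM_004956) the log2 intensity was 8.62 with pre-miR-424 and 8.13 with control on the normal array, and 8.74 and 8.02 on the swap. Both values with pre-miR-424 exceeded both control values, as they also did for JUN, which was not called. The log2 ratios of 0.48 and 0.72 gave a mean of 0.60 (SD 0.17, error of the mean 0.15), that is 1.52-fold higher, and 0.88% of genes had a higher mean. The normal array fell short of 1.5-fold.

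ETV1 was also the member with most probes, and all 4, which carry the same accession, had positive log2 ratios on each array. The second measured probe gave 0.19 and 0.08 (mean 0.14, error of the mean 0.14), and the third gave 0.31 and 0.44 (mean 0.38, error of the mean 0.14). The fourth probe gave 0.21 and 0.22, but it was the dimmest, not well above background in the control channel of the normal array, and took no part in the counts. The probes therefore shared a direction and differed in size, from 0.14 to 0.60 among the 3 measured ones, of which 1 passed the lower threshold. All were dim, with 22.3% to 35.9% of measured probes below the 3 in brightness.

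The other PEA3 factors did not share this pattern in size or in repeat. For ETV5, log2 intensities with pre-miR-424 and control were 10.94 and 10.96 on the normal array, and 11.24 and 10.71 on the swap. Its log2 ratios were −0.02 and 0.53 (mean 0.26, dye component −0.28), so its higher mean came from 1 array. Its duplicate spots ranged from −0.07 to 0.03 and from 0.52 to 0.55. For ETV4 the intensities were 10.11 and 10.01, and 9.90 and 10.08. Its log2 ratios were 0.11 and −0.18, with a mean of −0.03 against an error of 0.16, and its sign turned to a mean of 0.0032 with the scanner software's ratios. Neither ETV4 nor ETV5 was called. Whether the ratios of ETV1, ETV4 and ETV5 differ from each other was not tested, as there is 1 replicate.

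JUN (NM_002228) was bright, with 82.4% of measured probes below it. Its log2 intensities were 12.33 with pre-miR-424 and 12.24 with control on the normal array, and 12.44 and 12.21 on the swap. JUN mRNA was somewhat higher on both arrays, with log2 ratios of 0.09 and 0.23 (mean 0.16), a size close to the error of the mean of 0.15, and 15.9% of genes lay higher.

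**Figure D3:**
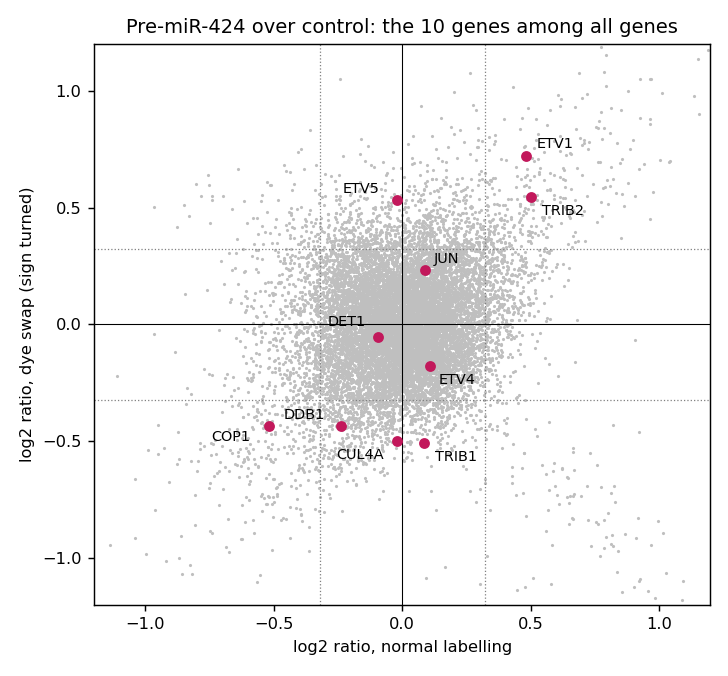
Log2 ratio of each measured gene on the normal array (horizontal axis) and on the dye swap with its sign turned (vertical axis), with the 10 genes labelled and dotted lines at log2 ratios of 0.32 in size; 42 of 13812 genes lie outside the axes. ETV1 and TRIB2 lie in the upper right and COP1 in the lower left, while CUL4A, TRIB1 and ETV5 lie near the vertical axis, displaced on the swap.

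Genes around these members were taken from 7 lists, with FOSL1 in 2 of them. The lists were written from general knowledge, but with earlier results of these data known, so none of them is independent evidence. The shares of all genes past each threshold, 1.01% and 4.67%, are those given above. Of the CUL4 ligase partners and neddylation genes, all 22 were measured and 0 passed 1.5-fold. At the lower threshold 2 were higher and 0 lower. CUL4B, the paralogue of CUL4A, had log2 ratios of 0.53 and 0.56 at its brightest probe and a mean of 0.30 at its other one, and UBE2E3, a ubiquitin-conjugating enzyme, had 0.36 and 0.77 and a mean of 0.43 at its other probe. The list's median was −0.03 (−0.11 on the normal array, −0.01 on the swap). COPS5, the catalytic subunit of the signalosome that takes NEDD8 off cullins, had ratios of −0.0093 and 0.03, and RBX1, the RING subunit of the scaffold, had 0.05 and −0.06; both were chosen for their role after their values were seen.

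DDB1 also serves other substrate receptors, of which 18 of 20 were measured. None passed 1.5-fold, and at the lower threshold 0 were higher and 2 were lower, DCAF8 (−0.54 and −0.74) and DCAF17 (−0.36 and −0.87). The other probe of DCAF8 had a mean of −0.09, so its probes disagreed. On both arrays 9 of the 18 were lower and 4 higher, against 26.7% and 26.8% of all genes, and the list's median was −0.11 (−0.13 on each array).

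Other reported COP1 adaptors and substrates were measured for 12 of 15 genes, and their median was −0.0065 (normal array 0.10, swap 0.0070, so the sign of the mean was not that of either array). At the lower threshold 1 was higher and 0 lower. This was STAT3, a transcription factor of cytokine signalling, with 0.54 and 0.67 at its brightest probe and a mean of 0.32 at the other. FOXO1 had 0.30 and 0.24, and TRIB3, the third Tribbles gene, had 0.25 and 0.10. ETS1 (0.03 and −0.03) and ETS2 (−0.12 and 0.11) had opposite signs on the arrays, and CEBPB was not measured.

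Of the partners of JUN in AP-1 and its kinases, 12 of 13 were measured. FOSL1, a FOS family subunit, was the only gene of the list past 1.5-fold, with log2 ratios of −0.63 and −0.65 (mean −0.64, 1.56-fold lower, array error 0.21). FOSB passed the lower threshold with −0.50 and −0.66. JUNB (−0.15 and −0.31) and JUND (−0.17 and −0.36), the paralogues of JUN, were lower on both arrays where JUN was higher, and FOS had 0.17 and 0.25. The list's median was −0.11 (normal array −0.15, swap −0.19). Of 10 known AP-1 target genes 9 were measured, and FOSL1, itself one of them, was the only one past the lower threshold. MMP3 had −0.34 and −0.28, whereas the urokinase PLAU (0.23 and 0.32) and its receptor PLAUR (0.43 and 0.18) were higher on both arrays. The median of the targets, −0.15, was −0.07 on the normal array alone and changed sign on the swap alone (0.05).

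ETV1, ETV4 and ETV5 are transcribed downstream of ERK signalling, together with feedback genes. Of 12 such genes 11 were measured, and all 11 kept their sign across the swap, as 53.5% of all genes did. Of these 8 were higher and 3 lower, against 26.8% and 26.7% of all genes. At the lower threshold 1 was higher and 1 lower. IER3, an immediate early gene, had 0.51 and 0.38, and SPRED1, an inhibitor of RAS and RAF signalling, had −0.60 and −0.55. The phosphatases DUSP6 (0.16 and 0.45), DUSP5 (0.26 and 0.50) and DUSP4 (0.29 and 0.10) had positive ratios without passing. Besides SPRED1, the lower genes were SPRY4 (−0.28 and −0.25) and SPRED2 (−0.18 and −0.07), which did not pass either. The list's median was 0.18, from a normal-array median of 0.08 and a swap median of 0.27.

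The fall of COP1 was set beside 13 textbook targets of the microRNAs with this seed, of which 12 were measured. At 1.5-fold 2 were lower, CCNE1 (−0.62 and −0.92) and CCND2 (−0.59 and −0.67), and at the lower threshold 5 were lower and 0 higher. By sign alone, 8 were lower on both arrays and 1 was higher, against 26.7% and 26.8% of all genes. The higher one was MAP2K1 (0.29 and 0.15), and CUL2, FGFR1 and BCL2 had opposite signs on the arrays. The mean of COP1 lay between those of CDK6 (−0.51) and CHEK1 (−0.30), and the list's median was −0.28. The list was written with earlier results of these arrays known, so it is no independent evidence. With each array centred on its median in place of loess, FOSL1, CCNE1 and CCND2 no longer passed 1.5-fold, and CUL4B, DCAF17, FOSB, IER3 and CCND2 no longer passed the lower threshold. With the mean over a gene's probes, CUL4B and IER3 did not pass it either.

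**Figure D4:**
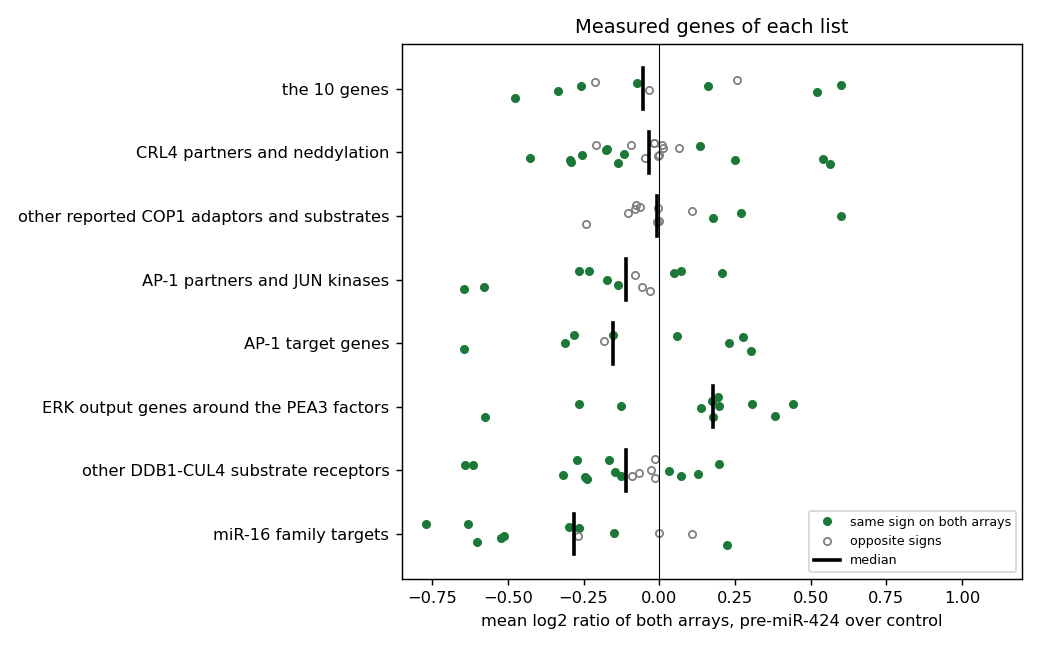
Mean log2 ratio of both arrays (horizontal axis) for each measured gene of the 10 members and of the 7 lists, filled where the arrays share a sign and open where they do not, with a bar at the median. The medians run from −0.28 for the targets of the miR-16 family to 0.18 for the ERK output genes, and all 11 measured ERK output genes are filled, where 53.5% of all genes had the same sign on both arrays.

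COP1, TRIB2 and ETV1 were the members called at the lower threshold under all 9 other ways of processing both arrays together. Several of these could not change the calls. The looser filters and the keeping of outlier spots left the value of each of these genes as it was. The mean over probes did so for COP1 and TRIB2, each read by a single probe, and the authors' ratios nearly repeat the main processing. Across these the mean log2 ratio ranged from −0.54 to −0.48 for COP1, from 0.49 to 0.62 for TRIB2 and from 0.37 to 0.86 for ETV1. ETV1 was highest with the scanner software's ratios, by which it also passed 1.5-fold, and lowest with the mean over its probes.

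**Figure D5:**
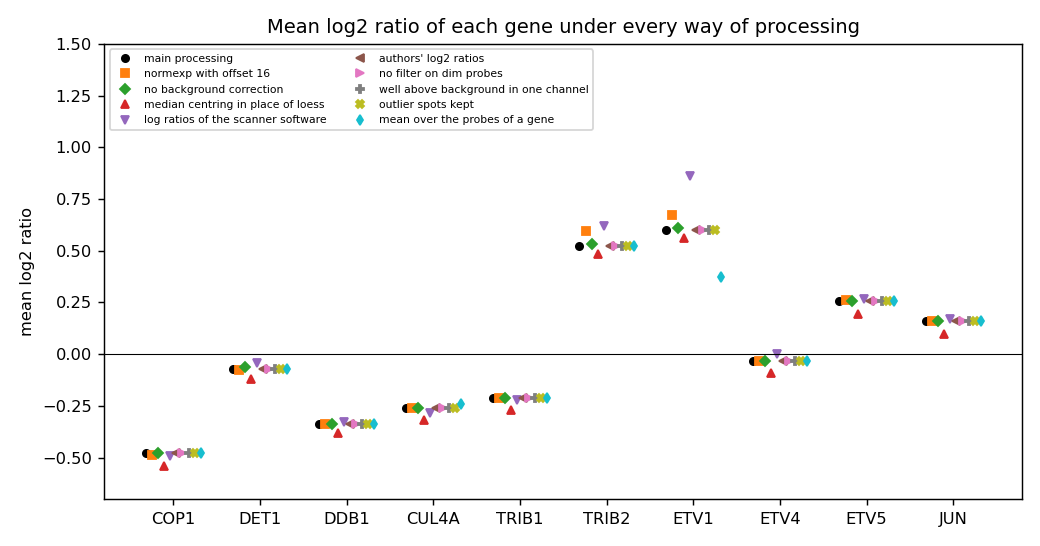
Mean log2 ratio of both arrays (vertical axis) for each of the 10 genes under the main processing and 9 alternatives, one symbol for each. ETV1 has the widest spread, from 0.37 to 0.86, and ETV4 lies near 0, from −0.09 to 0.0032.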

How the data were processed

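Agilent Feature Extraction 10.7.3.1 and a design on the hg19 build are named in the file headers. The intensity values deposited by the authors are the median brightness of each spot and of its local background in each channel, not normalized. The log10 ratios, deposited by the authors in the same files, are the scanner software's, Cy5 relative to Cy3. A further deposited table holds log2 ratios; per the labels limma was used, and its steps are not given in the sources used here. Over the measured probes it correlated with the ratios computed here (Pearson 0.999997 and 0.999992).

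In limma 3.58.1 under R 4.3.3, normexp (offset of 50) was fitted on every spot. Control spots were then dropped, loess was applied within arrays, and Aquantile scaling served the levels only. Replicate spots were averaged and ratios turned to pre-miR-424 relative to control. Probes flagged by the scanner as not well above background in any channel, or with an outlier spot, were not measured. RefSeq accessions were given for 27134 probes, and 25771 matched a symbol of RefSeq GRCh38.p14, used for names and microRNA sequences only. Python 3.11.15 with pandas 2.3.3 and numpy 2.4.6 handled the tables, and the steps were tested on simulated data. With 2 arrays, precision is limited by their number.

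The members and lists were chosen with earlier results of these data known. Named were all members with every probe and, of each list, the genes past 1.5-fold or else the 2 largest ratios of equal sign, together with the 3 genes nearest to COP1. Other genes were named after their values were seen. Alternatives were other background corrections, centring, starting values, filters, a mean over probes, other thresholds, and each array alone. Some genes of the lists are not reported here.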

Additional observations from a re-analysis of the deposited data

How the results depend on the processing

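Over the 10 members, 102 of 110 recomputed mean log2 ratios moved by less than the array error at the member's brightness. Many of these had no room to move, so the count is no measure of robustness. The looser filters and kept outlier spots returned the main value for every member. The mean over probes could move only CUL4A and ETV1, and the authors' ratios nearly repeat the main ones. With both arrays, larger moves were seen for ETV1 only, from 0.60 to 0.86 with the scanner software's ratios and to 0.37 with the mean over its probes, and why the scanner's value was higher was not tested. With each array alone, the ratio ranged from −0.50 to −0.020 for CUL4A, from −0.51 to 0.084 for TRIB1 and from −0.021 to 0.53 for ETV5, while COP1 (−0.52 to −0.44), TRIB2 (0.50 to 0.54) and ETV1 (0.48 to 0.72) kept their side of 0. The count of members past 1.5-fold, 0, was 1 with the scanner software's ratios and 0 to 1 with an array alone. At a log2 ratio of 0.32 it was 3, and the swap alone (without the normal array) gave 7 by adding DDB1, CUL4A, TRIB1 and ETV5. The shares of all genes past these thresholds with the scanner software's ratios or an array alone were not computed. Such counts, the 7 among them, therefore cannot be read as a result about the members. Of the genes of the 7 lists, whose measured numbers are given above, 3 passed 1.5-fold (1.01% of all genes). At 0.32, 14 passed (4.67%), and at 2-fold 0 passed (0.101%). Under median centring, which shifted the median of all genes to 0.13 and −0.23 on the arrays, 0 passed 1.5-fold. An array alone gave 7 to 8. For median centring and an array alone, the shares of all genes were not computed. The share of genes below COP1, 1.55%, was 1.98% to 4.42% with an array alone. Dim probes such as those of ETV1 and TRIB2 are limited by signal over background. Each ratio already pairs pre-miR-424 with control within an array, and with 1 replicate no paired test was run.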
